A study of Mus musculus with 15 samples.

Results

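DOCK8-deficient regulatory T (Treg) cells were compared with WT Treg cells after culture with stimulating beads, in 5 of the 15 libraries of the study. The members were the 2 bead libraries labelled DOCK8 deficient (called KO here) and the 3 bead libraries labelled WT, with the 31785 genes listed in their tables. Of these genes, 836 are listed in the bead tables only, and 22094 genes reached 1 TPM in at least 2 of the 5 libraries and were tested, 674 of them listed in the bead tables only.

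All libraries came from spleen and lymph node cells of female C57BL/6 mice with the genotype Foxp3YFP-Cre/+ Dock8flox/flox. Cre sits in the X-linked Foxp3 gene, so that in a heterozygous female the YFP+ cells express Cre, which acts on the floxed Dock8, while the YFP- cells of the same animals do not. CD25+CD39+ cells were sorted as YFP+ (KO) or YFP- (WT), from CD3+ cells in one label and CD4+ cells in another. They were cultured for 16 h with beads carrying anti-CD3 and anti-CD28, at 1 bead per cell, and Smart-Seq2 libraries were made from total RNA. Smart-Seq2 copies polyadenylated RNA from small inputs. KO cells thus differed from WT cells in Dock8 and also in carrying YFP and Cre and in reading Foxp3 from the YFP-Cre allele. The sort differed too: KO cells were selected for YFP, made from the Foxp3 gene, and WT cells for lacking it. WT cells were thus chosen without a mark of Foxp3 expression, and the share of other T cells in each sort was not tested. These differences cannot be told apart. The unstimulated groups, 4 WT and 6 KO libraries from the same design cultured without beads, were used for the last comparison only. The labels call the samples independent without naming separate mice or cultures, so p-values reflect only how far these samples differ from one another, which may be technical.

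DOCK8 loads GTP onto the small GTPase CDC42, which drives actin assembly below the T cell membrane, and it supports contacts such as the immune synapse. The series title links it to IL-2 signalling, on which Treg cells depend because they make little IL-2 themselves. Beads stand in for an antigen-presenting cell: anti-CD3 engages the T cell receptor and anti-CD28 the costimulator. Activated T cells also respond to interferon-gamma, which acts through the kinases JAK1 and JAK2 on genes that carry GAS and ISRE elements in their promoters. The products include guanylate-binding proteins (GBPs) and immunity-related GTPases (IRGs), which attack intracellular pathogens, and the machinery of MHC class I presentation.

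The interferon-gamma-induced GTPases were the group with the lowest median in KO cells among the 40 lists examined, and their promoters are shown first. RefSeq (GRCm38.p6) gives a promoter for 11 of the 18 tested members. Each was searched over 250 bases before the start, on both strands, for the GAS motif TTCNNNGAA and the ISRE core GAAANNGAAA; overlapping matches were counted. A gene was counted when any of its listed starts held the motif. The ISRE core was found in 10 of the 11 (90.9%), against 3.46% of all 27025 genes with a RefSeq promoter. For the GAS motif it was 6 of the 11 (54.5%), against 8.13% of those genes. The genes of this list are known interferon targets, so the matches describe them and test nothing. The 250 bases before the start of 4 members and of Socs1, the feedback inhibitor of JAK kinases, are printed 5′ to 3′ with motif matches in capitals. A GAS and an ISRE match lie close together in Igtp and Gbp7, and a run of ISRE matches lies in Irgm1 and Socs1. The starts are those of RefSeq and can differ from the GENCODE gene positions given below. The printed stretch of Irgm1 lies inside its GENCODE gene, and that of Gbp2 runs past its GENCODE start. The positions are Gbp2 chr3:142620413-142620662 on the plus strand, Irgm1 chr11:48871421-48871670 on the minus strand, Igtp chr11:58199306-58199555 on the plus strand, Gbp7 chr3:142530086-142530335 on the plus strand and Socs1 chr16:10785537-10785786 on the minus strand.
Gbp2: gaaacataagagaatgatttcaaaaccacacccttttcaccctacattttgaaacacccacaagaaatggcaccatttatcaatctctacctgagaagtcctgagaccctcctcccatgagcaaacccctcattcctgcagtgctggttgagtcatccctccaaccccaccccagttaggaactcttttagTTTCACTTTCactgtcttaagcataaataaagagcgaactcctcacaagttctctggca
Irgm1: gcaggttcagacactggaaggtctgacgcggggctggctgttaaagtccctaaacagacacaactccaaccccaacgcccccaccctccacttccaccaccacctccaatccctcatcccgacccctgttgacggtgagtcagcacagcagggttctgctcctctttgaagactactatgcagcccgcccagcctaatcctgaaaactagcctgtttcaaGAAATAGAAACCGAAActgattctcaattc
Igtp: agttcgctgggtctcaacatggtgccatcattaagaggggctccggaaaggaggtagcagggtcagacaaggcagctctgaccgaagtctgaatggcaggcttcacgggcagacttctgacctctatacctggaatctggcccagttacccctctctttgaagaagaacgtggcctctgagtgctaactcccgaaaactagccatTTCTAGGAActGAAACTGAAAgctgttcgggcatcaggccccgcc
Gbp7: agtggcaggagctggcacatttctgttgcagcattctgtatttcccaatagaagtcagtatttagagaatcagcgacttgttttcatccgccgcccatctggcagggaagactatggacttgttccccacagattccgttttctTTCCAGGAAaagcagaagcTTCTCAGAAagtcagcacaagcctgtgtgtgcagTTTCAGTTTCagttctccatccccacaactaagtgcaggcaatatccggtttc
Socs1: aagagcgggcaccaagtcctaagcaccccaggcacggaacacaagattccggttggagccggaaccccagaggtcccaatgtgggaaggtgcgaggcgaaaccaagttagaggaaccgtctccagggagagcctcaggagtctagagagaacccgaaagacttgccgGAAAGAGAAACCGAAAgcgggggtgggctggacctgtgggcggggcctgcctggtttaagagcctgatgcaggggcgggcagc

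Some whole-library measures overlapped between the genotypes in the 5 libraries, and others separated them. TPM are shares of a library and carry no read counts, so it is not known how many reads stand behind a value. Listed TPM summed to between 819697 and 844008 per library. Genes are not independent replicates; across them the correlation of log2(TPM + 1) was 0.864 to 0.876 between WT libraries, 0.837 between the KO libraries and 0.837 to 0.859 between genotypes. KO libraries had 19440 and 19488 genes at 1 TPM or more, above the 17256 to 18211 of WT libraries. They also had more genes at 20 TPM or more, 4441 and 4513 against 4202 to 4429. Scaling factors from abundant genes were 0.890 and 0.990 in KO, below the 1.01 to 1.10 of WT libraries. Median-ratio factors went the other way, at 1.05 and 1.08 in KO against 0.924 to 1.03 in WT. Predicted genes made of repeats took 12.3 and 18.9% of the deposited TPM sum in KO and 7.91 to 14.2% in WT libraries, and ribosomal protein genes 8.77 and 10.6% against 11.1 to 12.4%. The part of these measures in the gene results was not tested. The T cell genes Cd3e, Trac, Lck and Cd4 and the Treg genes Foxp3, Il2ra, Ikzf2, Entpd1 and Ctla4 were read at 20.2 TPM or more in every library, so the labelled cell type was present in all 5.

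Dock8 (ENSMUSG00000052085, chromosome 19, 24999534 to 25202432, plus strand, GRCm38) was read at 8.71, 10.1 and 8.91 TPM in the WT libraries and at 7.90 and 5.82 TPM in the KO libraries. Both KO libraries lay below every WT library, but transcripts were still counted in KO cells. On the log2(TPM + 1) scale KO differed from WT by -0.39, with an exact two-sided permutation p of 0.1 (n = 3 and 2), the smallest that the 10 assignments allow. A TPM value covers the whole gene, so it does not show whether the floxed exons were present.

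Across all 22094 genes, few differences passed the test. limma, fitted to log2(TPM + 1) in the 5 libraries, called 25 genes at a Benjamini-Hochberg adjusted p under 0.05 (0.113%), 11 lower (0.0498%) and 14 higher (0.0634%) in KO, and median-ratio scaling gave 12 lower and 9 higher. No gene was called without WT replicate 1, KO replicate 4 or KO replicate 5, while 13 were called without WT replicate 2 and 9 without WT replicate 3. Of the 25 genes, 24 were listed at 0 in every library of 1 group, and they are described near the end. None of the 40 gene lists held a called gene, so members of lists are given below by their values and by an unadjusted limma p under 0.05, which 3.21% of all genes tested reached with lower and 6.50% with higher values in KO. That split, 709 lower and 1437 higher, became 1255 and 1037 with median-ratio scaling, 975 and 1011 with quantile normalization and 478 and 1943 with scaling to abundant genes. The median log2 difference of all genes tested was 0.15 and moved to 0.04, -0.01 and 0.26 under these scalings, so list medians are to be read against 0.15. Among the 4905 genes whose mean reached 20 TPM in either group the median was -0.06, and 7.87% were lower and 8.15% higher at that p.

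**Figure D1:**
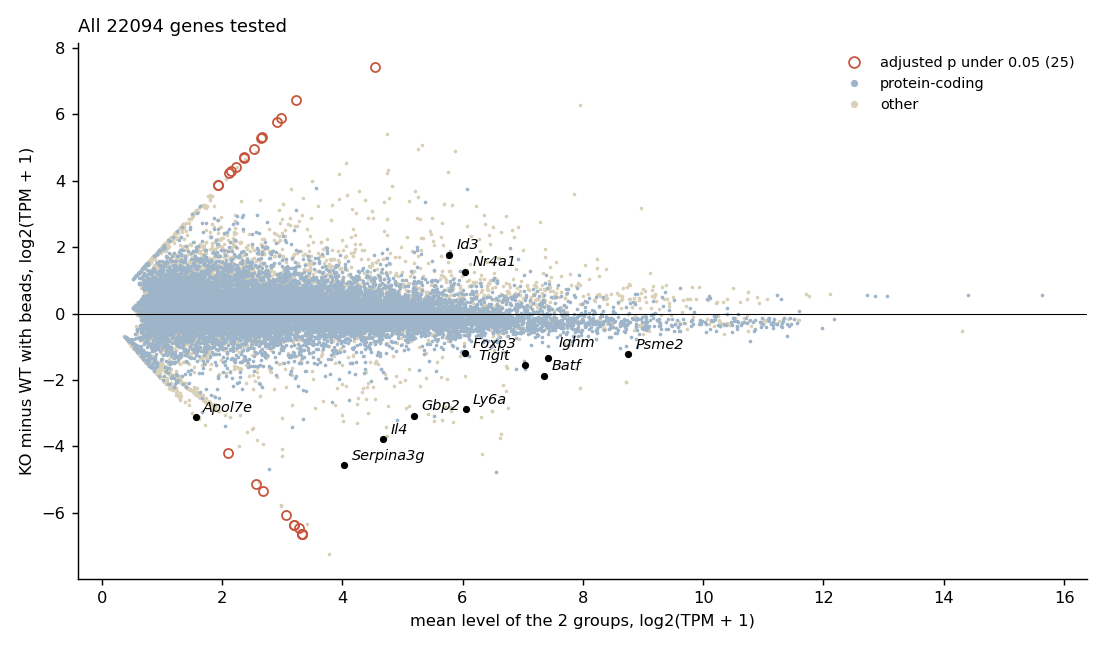
Difference between KO and WT Treg cells with beads (vertical axis, log2(TPM + 1)) against the mean level of the groups (horizontal axis, log2(TPM + 1)) for the 22094 genes tested. The 25 called genes, open circles, lie along the upper and lower edges where 1 group is near 0, while named protein-coding genes such as Psme2 and Batf lie at higher levels with smaller differences.

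The GBP and IRG genes were lower in KO cells as a group: all 18 tested members had negative differences, with a median of -1.41. At an unadjusted p under 0.05, 12 of the 18 were lower and 0 higher, and in 14 both KO libraries lay below every WT library, against 9.18% of all genes tested. None was called over all genes, and the smallest adjusted p of the list was 0.157. Gbp11 and Irgc1 did not reach the filter. The median was negative under each of the 22 alternatives tried, from -1.79 to -1.11. Some members have close paralogues in the list, such as Tgtp1 and Tgtp2, and reads could be split between those in an unknown way.

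Gbp2 (ENSMUSG00000028270, chromosome 3, 142620602 to 142638008, plus strand, GRCm38), whose ISRE match is printed above, was read at 137, 59.9 and 121 TPM in WT against 8.01 and 14.8 TPM in KO. Both KO libraries were below the lowest WT library, by a wide gap. The difference was -3.08 (SE 0.44, limma adjusted p = 0.157).

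Iigp1, an IRG that binds parasite vacuoles, was read at 26.5, 18.1 and 40.6 TPM in WT against 4.27 and 0.78 TPM in KO. Irgm1, a regulator of the other IRGs (ENSMUSG00000046879, chromosome 11, 48861968 to 48871683, minus strand), was read at 46.9, 39.6 and 62.9 against 16.5 and 8.83 TPM. Igtp, also called Irgm3, was read at 94.3, 81.1 and 124 against 43.3 and 39.3 TPM. In these 3 genes the groups did not overlap. Their differences were -3.19 (SE 0.58), -1.93 (SE 0.34) and -1.23 (SE 0.23), with limma adjusted p of 0.216, 0.214 and 0.226.

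Gbp6, at 30.2, 20.2 and 38.4 TPM in WT, was at 5.41 and 7.98 TPM in KO, and Gbp4, at 36.8, 31.6 and 41.0 TPM, was at 13.4 and 7.08 TPM. Gbp7 was read at 25.3, 15.6 and 22.5 TPM in WT against 6.95 and 7.83 TPM in KO. Not every member was so far apart: Ifi47, at 212, 126 and 235 TPM in WT, had 107 and 117 TPM in KO, and Gbp2b was low in all libraries with an overlap of the groups. The whole list summed to 508 to 889 TPM in WT libraries and to 259 and 299 TPM in KO libraries.

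**Figure D2:**
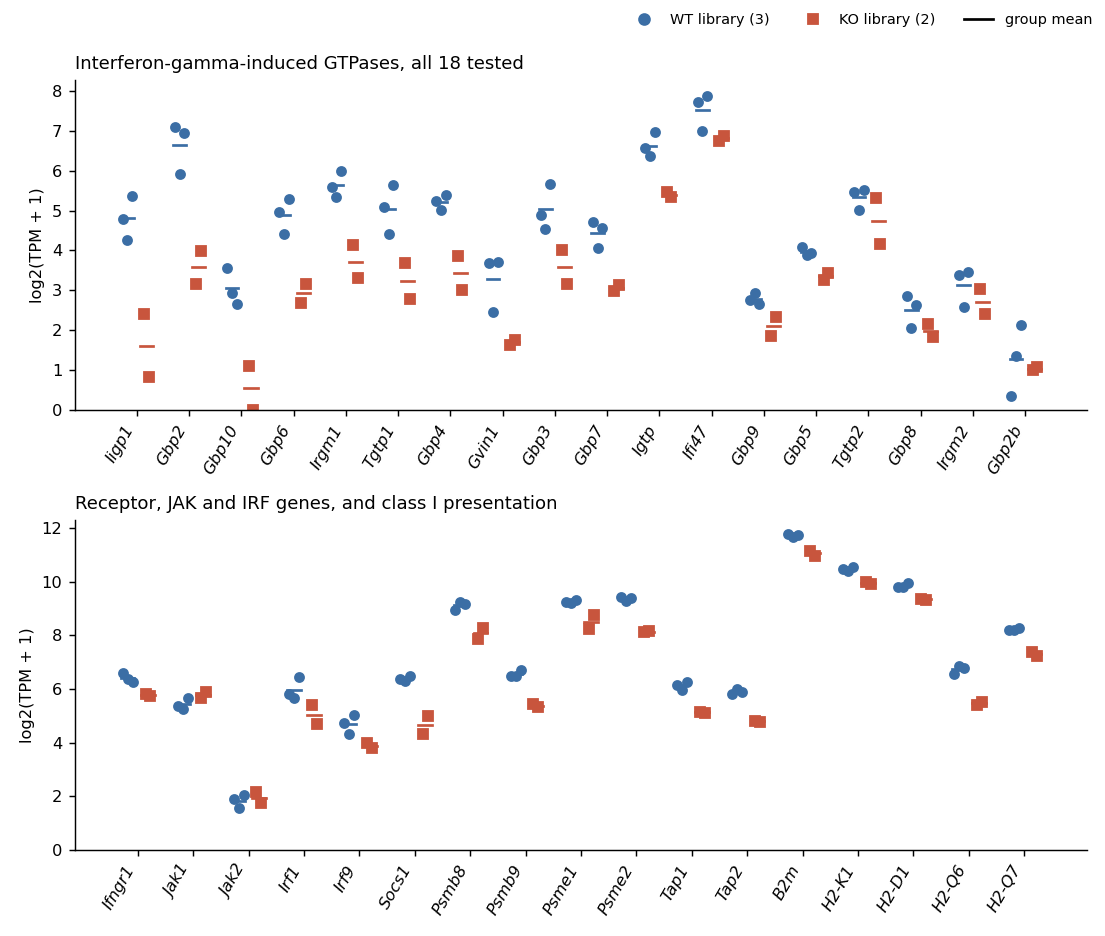
Level of each gene in each library (vertical axis, log2(TPM + 1)), with WT libraries as circles, KO libraries as squares and bars for group means. The top panel holds the 18 tested GTPase genes ordered by their difference, with Iigp1 and Gbp2 at the left, and the lower panel receptor, kinase, IRF and class I presentation genes, where Jak1 and Jak2 are the genes without lower values in KO.

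The receptor and its signalling chain did not move as one. Of 18 tested genes of the interferon-gamma receptor, JAK and IRF list, 7 were lower and 0 higher at an unadjusted p under 0.05, with a median of -0.55. Socs1, the feedback inhibitor whose promoter is printed above, was read at 83.0, 78.2 and 89.7 TPM in WT against 19.0 and 31.1 TPM in KO (-1.74, SE 0.25, limma adjusted p = 0.159). Both KO libraries lay far below the WT range.

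Ifngr1, the ligand-binding chain of the receptor, was read at 96.5, 82.4 and 75.6 TPM in WT against 55.9 and 52.7 TPM in KO. Its difference of -0.63 (SE 0.18) had a limma adjusted p of 0.385. Irf1, an interferon-induced transcription factor gene, was at 55.3, 50.3 and 86.6 TPM against 41.3 and 24.8 TPM, and Irf9 at 25.6, 19.0 and 31.7 TPM against 14.9 and 12.8 TPM. The kinase gene Jak1 was not lower, at 40.7, 37.1 and 49.4 TPM in WT against 50.1 and 58.0 TPM in KO. The ligand itself, Ifng, was near the detection limit of these tables, at 0.586 to 3.29 TPM in WT against 0.791 and 1.10 TPM in KO, and the groups overlapped.

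Class I presentation genes were lower in KO by smaller amounts and with little scatter. Of 23 tested genes, 15 were lower and 0 higher at an unadjusted p under 0.05, 22 had negative differences, and the median was -0.62. In 19 of the 23 both KO libraries lay below every WT library. These genes are abundant, and of all genes whose mean reached 20 TPM in either group, 21.0% lay below in this way.

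Psme2 (ENSMUSG00000079197, chromosome 14, 55587441 to 55591113, minus strand), a subunit of the proteasome activator PA28, was read at 683, 619 and 667 TPM in WT against 276 and 286 TPM in KO. The gap between the groups was several times the spread within them. Its difference of -1.22 (SE 0.12) had a limma adjusted p of 0.0603, and Psme2 was called at 0.0376 where the test was limited to genes of at least 20 TPM (adjusted p 0.0103 to 1 over the 22 alternatives). Pseudogenes of Psme2 could take part of its reads.

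The inducible proteasome subunit genes Psmb8 and Psmb9 had 496, 611 and 580 TPM against 235 and 311 TPM, and 88.4, 87.9 and 104 TPM against 42.7 and 39.1 TPM. The peptide transporter genes Tap1 and Tap2 had 70.9, 62.0 and 76.4 TPM against 34.9 and 33.4 TPM, and 55.7, 63.1 and 57.7 TPM against 27.2 and 26.7 TPM. In all 4 the KO values were about as close to each other as the WT values were, with no overlap. The class Ib genes H2-Q6 and H2-Q7, which are near-identical copies, had differences of -1.28 (SE 0.17) and -0.93 (SE 0.13; limma adjusted p = 0.147 for each). B2m, the invariant light chain of class I, had 2259 and 2004 TPM in KO against 3235 to 3519 TPM in WT. The classical heavy chain gene H2-K1 differed by -0.53 (SE 0.11, limma adjusted p = 0.263), while Calr and Pdia3, which fold many glycoproteins, differed by -0.15 each.

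Genes best known as type I interferon targets were mixed. Of 28 tested, 5 were lower and 2 higher at an unadjusted p under 0.05, with a median of 0.07 that changed sign under 6 alternatives, among them median-ratio scaling (-0.07). Bst2, which tethers budding viruses, was read at 122, 123 and 127 TPM in WT against 60.2 and 62.8 TPM in KO (-1.001, SE 0.15, limma adjusted p = 0.159). Zbp1, a nucleic acid sensor, was at 43.8, 27.5 and 22.6 TPM against 6.63 and 10.0 TPM. Ddx58, which encodes the RNA sensor RIG-I, went the other way, at 23.1, 40.3 and 54.4 TPM in WT against 73.4 and 115 TPM in KO (1.29, SE 0.41, limma adjusted p = 0.434). The KO libraries were thus below WT for Bst2 and Zbp1 and above it for Ddx58.

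**Figure D3:**
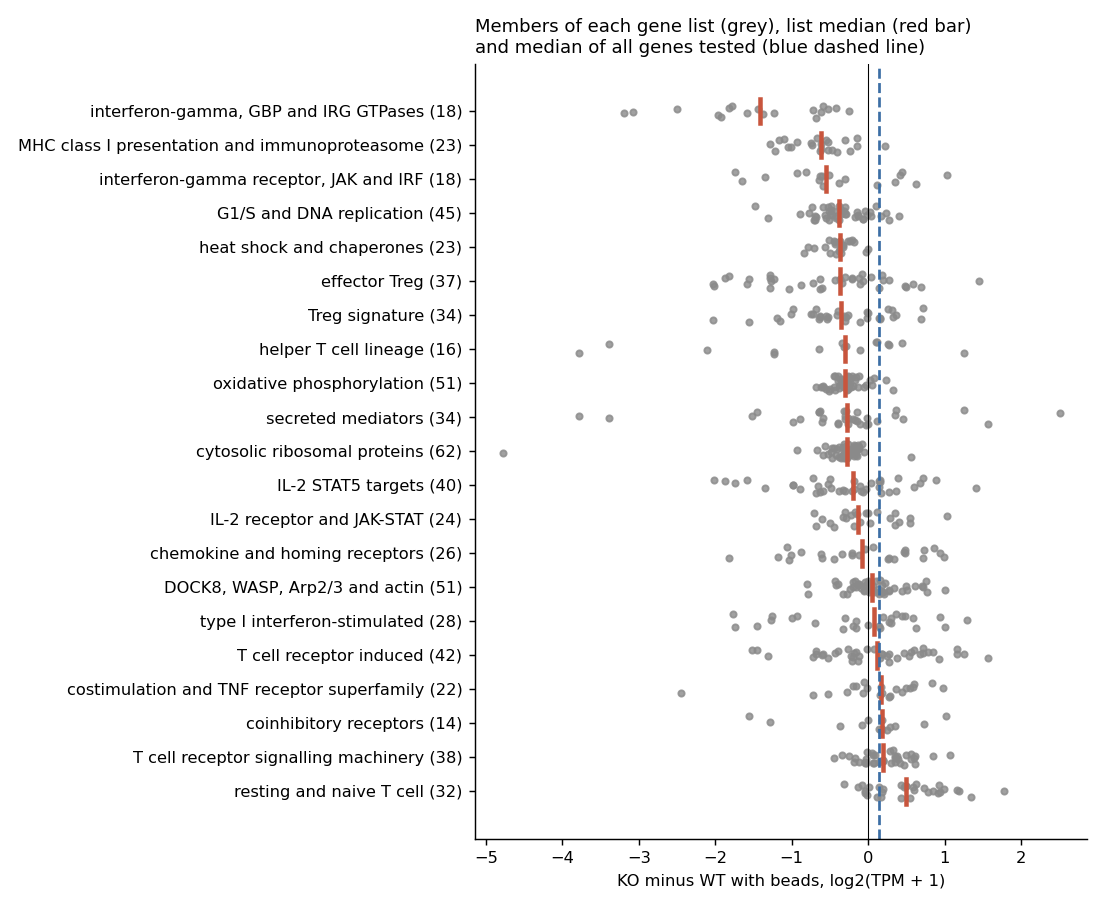
Difference between KO and WT with beads (horizontal axis, log2(TPM + 1)) for the tested members of 21 gene lists, each grey point 1 gene, with list medians as red bars and the median of all genes tested, 0.15, as a dashed line. The GTPase list has a median of -1.41 with all 18 members below 0, and the resting T cell list, with a median of 0.49, lies farthest to the right.

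Among Treg genes, Foxp3 and Tigit were lower in KO, while Ctla4 and Entpd1 were not. Foxp3 (ENSMUSG00000039521, X chromosome, 7573644 to 7595245, plus strand), the lineage transcription factor, was read at 102, 106 and 88.6 TPM in WT against 42.2 and 42.7 TPM in KO. The WT mean was 98.7 ± 9.0 TPM (SD, n = 3), and both KO libraries were far below it, with a difference of -1.19 (SE 0.17, limma adjusted p = 0.147). KO cells read Foxp3 from the allele that carries YFP-Cre and WT cells from the other. Allele, sort and DOCK8 deficiency thus cannot be told apart for this gene. Of 34 tested genes of the Treg signature, 9 were lower and 3 higher at an unadjusted p under 0.05, with a median of -0.35.

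Tigit (ENSMUSG00000071552, chromosome 16, 43648867 to 43664146, minus strand), a coinhibitory receptor, was read at 197, 216 and 263 TPM in WT against 69.8 and 81.1 TPM in KO (-1.56, SE 0.18, limma adjusted p = 0.110). It stood apart from the other coinhibitory receptors. Ctla4, which removes costimulatory ligands from partner cells, was at 165, 194 and 198 TPM in WT against 197 and 211 TPM in KO (0.14, SE 0.15), a difference within the spread whose sign turned with median-ratio scaling (-0.013). Pdcd1, which encodes PD-1, was at 35.0, 38.3 and 34.0 TPM against 41.5 and 40.0 TPM. Above the WT range in both KO libraries were Cd5, a brake on receptor signalling, at 115, 109 and 107 TPM against 203 and 167 TPM, and Vsir, which encodes VISTA, at 39.3, 34.2 and 53.6 TPM against 85.8 and 84.4 TPM. Of the 14 tested coinhibitory genes 1 was lower and 2 higher at an unadjusted p under 0.05. Their median of 0.18 was 0.016 without KO replicate 4 and 0.035 with median-ratio scaling.

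The ectonucleotidase gene Entpd1, which encodes the sorted marker CD39, was at 145, 156 and 87.3 TPM in WT against 150 and 165 TPM in KO, and the groups overlapped. Il2ra, which encodes the sorted marker CD25, the chain that gives the IL-2 receptor its high affinity, was read at 171, 227 and 171 TPM in WT and lower in both KO libraries, at 97.1 and 140 TPM (-0.69, SE 0.23, limma adjusted p = 0.459). Il2rb, a signalling chain shared with the IL-15 receptor, was at 142, 161 and 163 TPM against 129 and 123 TPM (-0.29, SE 0.15). Il4ra, a receptor chain for IL-4 and IL-13, was at 120, 104 and 152 TPM against 66.1 and 86.3 TPM. The IL-2 receptor and JAK-STAT list as a whole had 2 of 24 tested genes lower and 2 higher at an unadjusted p under 0.05, with a median of -0.13 that turned positive with scaling to abundant genes (0.01), without KO replicate 5 and with a replicate block.

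Of 37 tested effector Treg genes, 13 were lower and 1 higher at an unadjusted p under 0.05, with a median of -0.37 (-0.56 without WT replicate 3). In 16 both KO libraries lay below every WT library, and in 5 above. The shares were 9.18% below and 17.8% above over all genes tested. They were 21.0% and 16.2% among genes whose mean reached 20 TPM in either group. Batf, an AP-1 family factor of effector T cells (ENSMUSG00000034266, chromosome 12, 85686669 to 85709087, plus strand), was read at 258, 425 and 264 TPM in WT against 76.6 and 90.4 TPM in KO (-1.87, SE 0.26, limma adjusted p = 0.147). Id2, an inhibitor of E proteins, was at 32.5, 55.2 and 43.6 TPM against 12.2 and 7.89 TPM (-2.02, SE 0.32, adjusted p = 0.190). In neither gene did the groups overlap.

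Gata3, at 49.6, 73.1 and 61.4 TPM in WT, was at 19.7 and 32.3 TPM in KO, and Maf, at 6.91, 9.78 and 7.44 TPM, was at 3.16 and 2.31 TPM. Cxcr3, a chemokine receptor of type 1 responses, was at 14.9, 13.9 and 14.8 TPM against 1.75 and 6.05 TPM. Nfil3, also a transcription factor gene, was at 7.36, 17.0 and 9.19 TPM against 2.49 and 3.28 TPM. These 4 genes had differences from -1.23 to -1.82 and limma adjusted p from 0.315 to 0.364. The suppressive cytokine gene Il10 was at 36.7, 45.4 and 45.0 TPM in WT against 37.1 and 19.4 TPM in KO, an overlap. Of 40 tested IL-2 and STAT5 targets, among them Batf, Id2, Socs1 and Nfil3, 9 were lower and 2 higher at an unadjusted p under 0.05, with a median of -0.20 (-0.37 without WT replicate 1 or KO replicate 5).

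Among helper T cell genes, Il4 had the lowest difference of the helper lineage list. It (ENSMUSG00000000869, chromosome 11, 53602982 to 53618669, minus strand) was read at 45.3, 161 and 90.1 TPM in WT against 7.11 and 4.02 TPM in KO (-3.79, SE 0.56, limma adjusted p = 0.164). The WT libraries spread widely among themselves and all lay far above KO. Il9 was listed at 1.86, 37.8 and 9.34 TPM in WT against 0 in both KO libraries. Tbx21, which encodes the type 1 factor T-bet, was at 6.75, 8.56 and 22.2 TPM against 1.15 and 2.59 TPM (-2.11, SE 0.57, limma adjusted p = 0.374). Il21, a cytokine of follicular and type 17 cells, was low in both groups, at 2.22, 1.66 and 0.891 TPM in WT against 3.41 and 7.21 TPM in KO. Of 34 tested genes for secreted mediators, 3 were lower and 1 higher at an unadjusted p under 0.05, and of 16 helper lineage genes 5 were lower and 1 higher.

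Genes that the T cell receptor induces were not uniformly lower or higher in KO. Of 42 tested, 5 were lower and 5 higher at an unadjusted p under 0.05, with a median of 0.12 (-0.03 with median-ratio scaling, 0.07 without WT replicate 1 and 0.22 without WT replicate 2). Nr4a1 (ENSMUSG00000023034, chromosome 15, 101254269 to 101274795, plus strand), an immediate-early gene that encodes NUR77, was read at 41.9, 40.6 and 41.4 TPM in WT against 118 and 85.1 TPM in KO (1.26, SE 0.20, limma adjusted p = 0.193). The WT values were close together and the KO values above them all.

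Cd69, an early activation marker that retains cells in tissue, was at 95.1, 70.6 and 92.1 TPM in WT against 218 and 168 TPM in KO, and Dusp2, a MAP kinase phosphatase, at 67.2, 72.9 and 64.0 TPM against 149 and 114 TPM. Nr4a3 was at 13.5, 19.7 and 12.9 TPM against 34.1 and 35.6 TPM. These 3 genes had differences of 1.16, 0.93 and 1.16 and limma adjusted p of 0.225, 0.256 and 0.289. Below the WT range were Jun, at 12.4, 10.2 and 16.5 TPM against 3.56 and 5.76 TPM, and the chemokine gene Xcl1, at 12.5, 17.2 and 9.77 TPM against 2.92 and 5.48 TPM. Icos, the inducible costimulator, was at 106, 183 and 168 TPM against 85.7 and 93.7 TPM. Of the 22 costimulatory and TNF receptor genes 2 were lower and 4 higher at that p: Tnfrsf25, which encodes DR3, was at 34.5, 29.4 and 28.3 TPM in WT against 59.7 and 63.0 TPM in KO, and Tnfrsf8, which encodes CD30, at 4.37, 13.0 and 5.31 TPM against 0.245 and 0.645 TPM.

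The signalling machinery of the receptor had 0 of 38 genes lower and 3 higher at an unadjusted p under 0.05, with a median of 0.20 that was 0.079 without KO replicate 4 and 0.38 without KO replicate 5. Zap70, the kinase recruited to the receptor, was at 100, 84.9 and 107 TPM in WT against 150 and 122 TPM in KO (0.47, SE 0.18, limma adjusted p = 0.504). The actin list, which holds the pathway of DOCK8 itself, was close to the median of all genes, at 0.05 over 51 tested genes with 1 lower and 1 higher, and turned to -0.10 with median-ratio scaling and to -0.003 without KO replicate 4. Was, which encodes the WASP protein linked to DOCK8 by WIP, was at 16.5, 25.2 and 11.8 TPM in WT against 32.5 and 27.4 TPM in KO. Tln1, an integrin activator, was at 17.9, 16.6 and 14.8 TPM against 31.3 and 36.9 TPM (1.01, SE 0.22, limma adjusted p = 0.275), above every WT library.

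**Figure D4:**
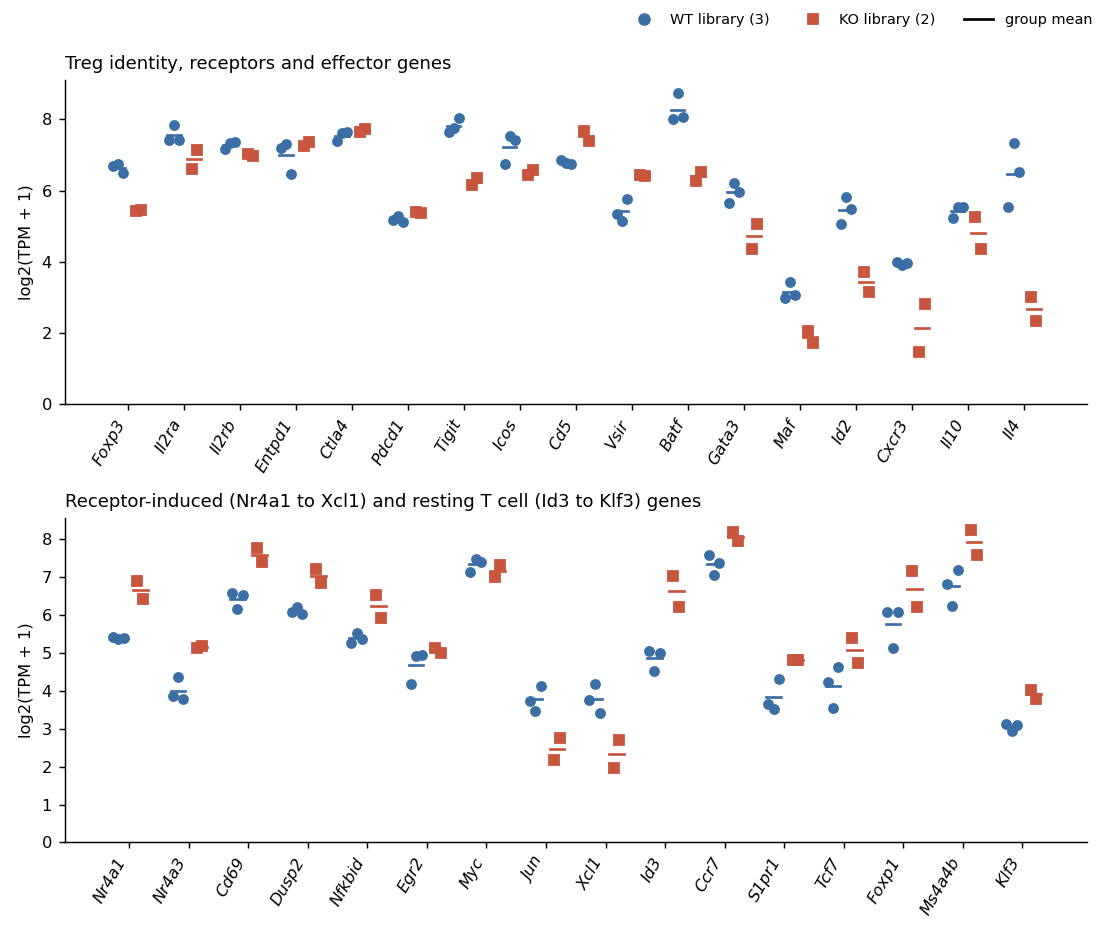
Level of each gene in each library (vertical axis, log2(TPM + 1)), with WT libraries as circles, KO libraries as squares and bars for group means. In the top panel Foxp3, Tigit, Batf and Id2 have both KO libraries below WT and Cd5 and Vsir both above, and in the lower panel Nr4a1, Cd69, Id3 and Ccr7 have both KO libraries above WT.

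Genes of resting and naive T cells, which activated cells usually turn down, had higher values in KO. Of 32 tested, 7 were higher and 0 lower at an unadjusted p under 0.05, with a median of 0.49, and in 16 both KO libraries lay above every WT library, against 17.8% of all genes tested. The median stayed positive under the 22 alternatives, from 0.36 to 0.73. Id3 (ENSMUSG00000007872, chromosome 4, 136143497 to 136145755, plus strand), like Id2 an inhibitor of E proteins, was read at 32.0, 22.2 and 30.8 TPM in WT against 131 and 73.3 TPM in KO (1.77, SE 0.32, limma adjusted p = 0.215). Id2 and Id3 thus differed in opposite directions.

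Ccr7, which guides naive and central memory cells into lymph nodes, was at 191, 132 and 166 TPM against 293 and 245 TPM. S1pr1, the receptor for lymph node exit, was at 11.6, 10.6 and 19.0 TPM in WT against 27.3 TPM in both KO libraries. Ms4a4b, a membrane protein of resting T cells, was at 112, 74.9 and 146 TPM against 302 and 192 TPM. All 3 were above the WT range in both KO libraries, with differences of 0.73, 0.99 and 1.16 and limma adjusted p from 0.382 to 0.434. Tcf7, which encodes TCF1, was at 17.7, 10.7 and 23.9 TPM in WT against 41.4 and 25.6 TPM in KO. Ccr7 and S1pr1 also belong to the homing receptor list, in which 4 of 26 genes were lower and 4 higher at that p.

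Growth genes had small differences in KO, negative in some lists. Among genes of 100 TPM or more in the higher group the median was -0.18 and 14.6% were lower at an unadjusted p under 0.05. Ribosomal protein genes had 18 of 62 lower and 0 higher at an unadjusted p under 0.05, with a median of -0.28 (-0.12 with scaling to abundant genes, -0.15 without KO replicate 4). Oxidative phosphorylation genes had 12 of 51 lower and 0 higher, with a median of -0.30 (-0.46 without KO replicate 5), and chaperone genes 6 of 23 lower and 0 higher, with a median of -0.37 and all 23 differences negative. Hspa8, the constitutive HSP70 chaperone, was at 2248, 2497 and 2262 TPM in WT against 1111 and 1539 TPM in KO (-0.83, SE 0.17, limma adjusted p = 0.256). Genes of G1/S and DNA replication had 4 of 45 lower and 0 higher and a median of -0.38, a share close to that of all genes of at least 20 TPM. The median was -0.20 without KO replicate 4, -0.22 without WT replicate 2, -0.60 without KO replicate 5 and -0.04 with the replicate block. In the lists for G2/M (38 tested), glycolysis (24), sterol and fatty acid synthesis (28) and amino acid uptake (26) 0, 1, 0 and 0 genes were lower and 0, 1, 0 and 3 higher. Hells, a chromatin remodeler of dividing cells, was at 23.6, 35.4 and 23.7 TPM against 13.3 and 6.01 TPM. Because the ribosomal share itself was lower in KO libraries and TPM are shares of a fixed total, these differences are in shares of each library and not amounts per cell.

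The ranking by unadjusted p also named Ly6a, Apol7e, Ndufc1 and Cst7 below the WT range, in that order. Ly6a, which encodes the surface protein Sca-1 and is interferon inducible, was read at 134, 215 and 187 TPM in WT against 28.2 and 18.7 TPM in KO (-2.88, SE 0.29, limma adjusted p = 0.0603). It was called at 0.0376 among genes of at least 20 TPM (adjusted p 0.00444 to 1 over the 22 alternatives), as was the noncoding gene AW112010, chosen after its values were seen, at 635, 404 and 583 TPM against 112 and 113 TPM. Ndufc1, of respiratory complex I, was at 185, 239 and 204 TPM against 55.2 and 75.3 TPM, and Cst7, which encodes cystatin F, at 66.6, 77.3 and 66.7 TPM against 24.9 and 26.2 TPM. Serpina3g, an interferon-inducible protease inhibitor also chosen after its values were seen, was at 57.7, 73.3 and 74.0 TPM in WT against 0.308 and 5.48 TPM in KO. In these 5 genes the groups were far apart. Apol7e is described with the unstimulated cells.

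Further genes above the WT range that the ranking by unadjusted p named were, apart from Strbp, at low levels. Strbp, which encodes an RNA-binding protein, was read at 31.9, 27.7 and 24.7 TPM in WT against 79.4 and 64.4 TPM in KO (1.33, SE 0.21, limma adjusted p = 0.193). Osbpl5, for a lipid transfer protein, was at 0.404 to 1.12 TPM in WT against 10.3 and 10.6 TPM in KO, and Tef, a clock-related transcription factor gene, at 1.70 to 2.78 TPM against 12.9 and 12.03 TPM. Spink4, Defa2 and S100a2 were listed at 0 in all WT libraries and at 3.49 to 11.6 TPM in KO, and Adam3, Abhd15, Gc and Ermap at 0 to 0.703 TPM in WT against 5.32 to 10.9 TPM in KO. Spink4, Defa2 and Adam3 are best known from intestine and testis. Such low values rest on an unknown number of reads.

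The 25 called genes were mostly short or predicted. GENCODE annotates 11 as miRNA genes, 8 as pseudogenes, 2 as lincRNAs, 2 as genes to be experimentally checked, 1 as the T cell receptor joining segment Trbj2-2 and 1, Gm20721, as protein coding. Gm25110, Gm25775, Gm25171 and Gm24795 had the same value in every library, 101, 77.4 and 122 TPM in WT against 0 in both KO libraries, and the same transcript of 121 bases. They are therefore 1 measurement listed under 4 names, and the 25 genes hold 20 distinct sets of values. The shared transcript, at chr7:103260883-103261003 on the minus strand for Gm25171, is printed in full from the GRCm38 genome.
Gm25171: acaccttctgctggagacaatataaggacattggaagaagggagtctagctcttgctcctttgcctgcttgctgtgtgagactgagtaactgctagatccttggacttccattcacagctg

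Mir142 (ENSMUSG00000105196, chr11:87756864-87756927, plus strand) is a microRNA gene abundant in blood cells. It was listed at 0 in all WT libraries and at 19.0 and 32.3 TPM in KO with a limma adjusted p of 0.0358. Smart-Seq2 starts from polyadenylated RNA, so the value belongs to reads over the hairpin of 64 bases and not to mature miRNA. The RefSeq hairpin is printed with both mature arms in capitals; an antisense gene, Mir142b, overlaps it, and the strand used in counting is not given in the sources used here.
Mir142: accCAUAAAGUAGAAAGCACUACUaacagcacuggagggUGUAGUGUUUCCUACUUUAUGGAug

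Gm26825, a lincRNA on chromosome 5 (5781530 to 5783636, plus strand), had the largest called difference. It was listed at 0, 3.03 and 0 TPM in WT against 287 and 260 TPM in KO, with a limma adjusted p of 0.0449, and it was the called gene with a value above 0 in both groups. Gm20721 was listed at 20.03, 17.0 and 15.5 TPM in WT against 0 in KO. When genes listed at 0 throughout a group were left out, limma called 0 genes, with 549 lower and 1176 higher at an unadjusted p under 0.05. When the test was limited to protein-coding genes of at least 20 TPM, an alternative chosen after seeing the data, 28 of 3844 were called, 23 lower and 5 higher, among them Psme2, Ly6a, Gbp2, Socs1, Tigit, Batf, Foxp3, Il4, Serpina3g, Id3 and Nr4a1. The mean had to reach 20 TPM in either group. Gbp2 and Il4, with KO means of 11.4 and 5.56 TPM, and Serpina3g passed only through WT, where they were high, so their calls are no separate support. None of the 25 could enter that test. Gm20721, the only protein-coding gene among the 25, had a mean of 17.5 TPM in WT and 0 in KO.

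Genes listed in the bead tables only held 6 of the 25 called genes, all at 0 in WT: Trbj2-2, Gm5616, Gm10479, Mir142, Gm37778 and Gm37807. Of the 674 tested, 2.82% were lower and 10.5% higher in KO at an unadjusted p under 0.05. The histone gene Hist1h2ak was at 31.2, 30.4 and 13.1 TPM in WT against 0 and 4.18 TPM in KO, with a limma adjusted p of 0.297. Rps12, a ribosomal protein gene, was at 180, 176 and 387 TPM in WT, 70.0 TPM in 1 KO library and 0 in the other. A ribosomal protein gene at 0 in a library where the other ribosomal genes are abundant can be a failed estimate, so no fold is given.

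Markers of other cells were low, with exceptions that T cells or many cells express. Of the B cell list Ighm was the abundant member, at 262, 256 and 293 TPM in WT against 99.7 and 113 TPM in KO (-1.34, SE 0.15, limma adjusted p = 0.0874; called at 0.0489 among genes of at least 20 TPM, with 0.0489 to 1 over its alternatives). The list summed to 304 to 347 TPM in WT against 169 TPM in both KO libraries, with Ms4a1 and Cd79a at 0 to 3.28 TPM. Of its 16 tested members, Ighm included, 5 had negative differences. In 1 of the 16 the KO libraries lay below and in 3 above the WT range, where 9.18% and 17.8% of all genes tested did so. The median was 0.46, 0.14 without KO replicate 4 and -0.01 with a filter of 5 TPM. The CD8 T and NK cell list summed to 121 to 142 TPM against 86.4 and 89.3 TPM, of which Cst7 and Nkg7 made up most, with Cd8a at 0.367 to 2.39 TPM, while 3 of its 13 tested members had negative differences and the median was 0.46. The myeloid list summed to 230 to 244 TPM against 134 and 162 TPM, mainly from Bst2 and Ctss, with Lyz2 at 0 to 1.05 TPM. Neutrophil markers summed to 8.61 to 14.2 TPM in WT and to 14.8 and 16.6 TPM in KO. In bulk samples fewer cells of a type and less RNA per cell cannot be told apart.

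Unstimulated cells allowed the genotype difference to be compared with and without beads, each within its own libraries. Both differences came from 1 fit over all 15 libraries, which share its estimate of the spread. In that fit 2666 of 29989 genes (8.89%) were lower and 720 (2.40%) higher in unstimulated KO at an unadjusted p under 0.05. The median of the GTPase list was -0.57 without and -1.41 with beads, and that of the Treg signature -1.14 without and -0.35 with beads. The resting T cell list had -0.24 without and 0.49 with beads, and class I presentation -0.87 and -0.62. Without beads, list medians were negative except for B cell (0.10), neutrophil (0.02), stromal (0.14) and repeat-derived genes (0.73). They were -0.60 for actin, -0.79 for oxidative phosphorylation, -0.78 for glycolysis and -0.38 for apoptosis genes. The Treg signature lay below these medians and the resting T cell list above them. A median of all genes without beads is not given, so the change of sign in the resting T cell list shows no reversal against other genes. The difference of the genotype effects was called for 1 of 29989 genes (0.00333%), and 1247 (4.16%) had an unadjusted p under 0.05. At that p the difference was reached by 4 of 18 GTPase genes, 7 of 34 Treg signature genes, 8 of 32 resting T cell genes and 0 of 23 class I presentation genes.

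The called gene, ENSMUSG00000096252, has no symbol in the annotation. It was listed at 0 in all 6 unstimulated KO libraries and at 5.04 to 15.2 TPM in the 4 unstimulated WT libraries. With beads it was at 6.93, 4.04 and 9.64 TPM in WT against 13.9 and 13.4 TPM in KO. The genotype order was thus opposite in the conditions (difference of effects 4.33, SE 0.56, limma adjusted p = 0.0356), and the gene was no longer called with any of the 5 bead libraries left out (adjusted p 0.0608 to 0.327).

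Apol7e, of the apolipoprotein L family, had the next smallest p. It was at 7.59, 9.47 and 6.39 TPM in WT against 0 in both KO libraries with beads, and was called there in the fit over 15 libraries (limma adjusted p = 0.0108, and 0.0108 to 0.743 over the alternatives). Without beads it was at 9.85, 15.03 and 20.1 TPM (lowest, median and highest of the 4 WT libraries) and 10.6, 14.3 and 17.5 TPM (of the 6 KO libraries). The KO libraries with beads thus stood below every other library, and the difference of the effects had an adjusted p of 0.0759.

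Serpina3f and Gbp10 were near 0 without beads in both genotypes, at up to 2.27 and 0.936 TPM. With beads they were at 4.80 to 12.6 and 5.28 to 10.8 TPM in WT and at most 0.211 and 1.15 TPM in KO. Id1 was at most 0.811 TPM in unstimulated WT, 1.13 to 6.45 TPM in unstimulated KO, 8.83, 15.7 and 20.9 TPM in bead WT and 2.08 and 5.78 TPM in bead KO. These 3 genes had higher WT than KO values with beads, which without beads Id1 reversed.

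Ptpn4, a phosphatase gene, was at 5.36 to 27.6 TPM in unstimulated WT and 0.680 to 3.06 TPM in unstimulated KO, but at 7.02, 12.3 and 5.90 TPM in bead WT and 17.3 and 17.5 TPM in bead KO. Aff3 and Cyb561a3 had the same order: lower in all unstimulated KO libraries than in WT and higher in both bead KO libraries. Pdcd1 was at 30.8 to 94.5 TPM in unstimulated WT and 2.26 to 16.2 TPM in unstimulated KO, against the near-equal bead values given above (difference of effects 3.34, SE 0.75, unadjusted p = 0.000454, adjusted p = 0.581). Ctla4 was at 52.4 to 95.9 TPM in unstimulated WT and 19.9 to 51.6 TPM in unstimulated KO. Irgm1 was at 19.05 to 25.02 TPM and 10.4 to 23.1 TPM without beads, an overlap that was absent with beads.

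**Figure D5:**
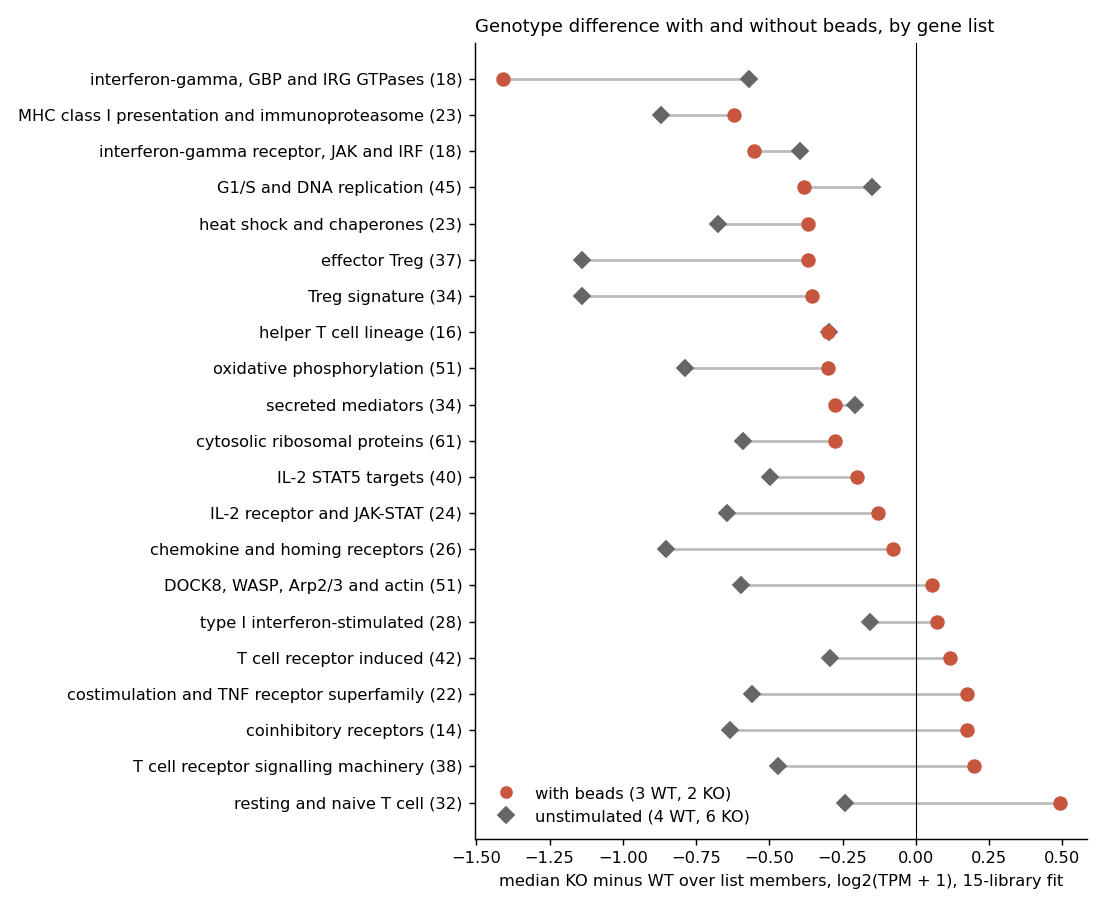
Median difference between KO and WT (horizontal axis, log2(TPM + 1), fit over 15 libraries) for 21 gene lists, with beads as circles and without beads as diamonds; the number of genes is in parentheses. The GTPase list lies lower with beads (-1.41 against -0.57), and most other lists, such as the Treg signature (-0.35 against -1.14), lie higher with beads.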

How the data were processed

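The authors deposited 1 table per library with Ensembl gene identifiers and TPM values, per the labels; the submitters' processing notes name STAR, Salmon, DESeq2 and the mm10 genome, with no role or version for each; the strand of counting is also not given in the sources used here. TPM keep no depth, so no count model was fitted and values carry no counting interval. Symbols and positions came from GENCODE vM21 on GRCm38, for 31609 of 31785 genes, and promoters from RefSeq (GRCm38.p6).

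Genes that reached 1 TPM in 2 or more bead libraries were fitted as log2(TPM + 1) in limma 3.58.1 (R 4.3.3) with the trend option, 3 WT against 2 KO, 3 residual degrees of freedom, with Benjamini-Hochberg adjustment over 22094 genes. Genes are named as called where the adjusted p was under 0.05. Differences are KO minus WT on this scale, which understates low genes; SE are from limma. The difference of genotype effects came from 1 fit over 15 libraries with 29989 genes. Dock8 was compared by an exact two-sided permutation test.

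Named genes were Dock8, Foxp3, Il2ra, Il2rb, Ctla4 and Entpd1, up to 12 per direction (called first, then by unadjusted p) whose groups did not overlap and whose higher group reached 5 TPM, up to 3 per direction listed in the bead tables only, up to 6 per list (all where 20 or fewer were found) and up to 4 per direction for the difference of effects; predicted genes, small RNAs, pseudogenes and antigen receptor segments were left out of the ranking. A few genes that this rule names are not reported here. Other genes were named after their values were seen. The members and the 40 gene lists (993 genes, 977 listed in the bead tables) were chosen with earlier results of these data known. Alternatives were other pseudocounts, filters, scalings and limma options, all 15 libraries, a replicate block and each library left out. After the data were seen, tests on protein-coding genes, on protein-coding genes of at least 20 TPM and on genes above 0 in both groups were added.

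The fit was tested on simulated data for KO against WT with beads, with 22094 genes. Changes of 1, 2 and 3 on the log2 scale were called in 11.9%, 88.1% and 97.0%. They were placed in genes of at least 20 TPM whose mean log2(TPM + 1) over all libraries was also high. The real genes named next did not have to meet that second condition. There were 6 false calls. In the real data 20 genes of at least 20 TPM were called, but Ly6a (-2.88), Gbp2 (-3.08) and Il4 (-3.79) were not. These rates thus describe the simulated data only. Analyses in Python used version 3.11.15 and pandas 2.3.3.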

Additional observations from a re-analysis of the deposited data

Results flagged for a closer look

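In 1 gene the genotype effect differed between the conditions by the test of the difference itself: ENSMUSG00000096252, with a difference of 4.33 on the log2(TPM + 1) scale (SE 0.56, limma adjusted p = 0.0356). It was listed at 0 in every unstimulated KO library. Among the unstimulated libraries of the 11 genes compared there, 22 groups were examined for a library far from the others by Dixon's criterion. Of these groups, 4 held one. They were Gbp10 in WT library 1, at 0.936 TPM with the other WT libraries at 0, Id1 in KO library 5, at 6.45 TPM, Ptpn4 in KO library 5, at 3.06 TPM, and Ctla4 in the KO library without a number, at 51.6 TPM. The bead groups, with fewer than 4 libraries each, were not examined. The 4 cannot be set against a rate by chance, because TPM have a floor at 0 and the groups reuse the same libraries.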

How the results depend on the processing

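The count of 25 called genes depended on the genes tested and on single libraries. It was 14 among genes of at least 20 TPM, 1 for all 15 libraries, 1 among protein-coding genes and 0 among genes above 0 in both groups. With each bead library left out it ranged from 0 to 13. It was 0 without WT replicate 1 (747 lower and 1174 higher genes at an unadjusted p under 0.05 in limma), without KO replicate 4 (579 and 994) and without KO replicate 5 (988 and 1199), where a lone KO library is assumed to vary like the WT libraries. Among protein-coding genes of at least 20 TPM 28 were called, in a test that none of the 25 could enter. Under 11 other alternatives 17 to 31 were called, and the replicate block is given below.

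The GTPase median of -1.41 was -1.79 among genes of at least 20 TPM and among protein-coding genes of at least 20 TPM, where fewer members are tested, and -1.63 to -1.22 with each library left out. Dock8 stayed lower in KO, at -0.59 to -0.20 with each library left out and an exact permutation p of 0.25 to 0.5, where 0.25 is the smallest that 3 against 1 allows. The count of 1 gene for the difference of genotype effects was 3 with a pseudocount of 0.1, 2 with a filter of 5 TPM, 2 with median-ratio scaling and 0 with a pseudocount of 5, scaling to abundant genes or quantile normalization; it ranged from 0 to 2 with each library left out, and was 2 without WT replicate 2 and 0 without WT replicate 1, WT replicate 3 or KO replicate 4. In limma, 799 to 1402 genes had an unadjusted p under 0.05 in these fits. Of 79 named genes, 2 changed sign: Ctla4 with median-ratio scaling (-0.013) and Vsir with the replicate block (-0.42). The cause of these changes was not tested.

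Over 11 pairs of same-numbered libraries the correlation of deviations from the group means was -0.0249 to 0.0265. Over 50 pairs with different numbers it was -0.0400 to 0.0591. The same-numbered pairs thus lay within the range of the others. These values cannot decide whether the title numbers pair the samples, because the pairs reuse the same libraries. The 2 KO bead libraries, which are in some of the pairs, also deviate from their mean by equal and opposite amounts. No title number holds both a WT and a KO bead library, so a replicate block links these groups only through the unstimulated libraries. Within the bead libraries alone, number and genotype cannot be told apart. With the number as a replicate block over 15 libraries limma called 0 genes for KO against WT with beads (442 lower and 1357 higher at an unadjusted p under 0.05) and 0 for the difference of effects (1796 at that p). Low TPM rest on an unknown number of reads, and 2 KO libraries set the precision of every comparison.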
